A study of Mus musculus with 2 samples.

Results

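The 9 complement genes C1qa, C1qb, C1qc, C1ra, C3, C4b, Cfb, Cfd and Cfp were followed by RNA sequencing in the interscapular brown fat (iBAT) of mice, a thermogenic depot. They were taken by gene symbol from the 27179 genes counted, and each symbol was found once in the table of either library. There was 1 untreated wild-type (WT) library and 1 untreated Ucp1 knockout (Ucp1-KO, Δ/Δ) library, both on the C57BL/6N background, at an age of 20 days and from animals described as male. Each library was made from the pooled iBAT of 3 animals. The design addresses how transcripts of brown fat differ when UCP1, the mitochondrial protein that releases the proton gradient as heat, is missing. With 1 library per genotype there is no replicate error. Intervals therefore cover counting error only, and what follows compares these libraries rather than the genotypes at large.

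Complement is a cascade of plasma proteases and binding proteins of innate immunity. In the classical pathway C1q binds immune complexes or dying cells and switches on the proteases C1r and C1s, which cleave C4 and C2, and all pathways meet at the cleavage of C3. In the alternative pathway factor D (adipsin, encoded by Cfd) cleaves factor B bound to C3, and properdin (Cfp) stabilises the resulting convertase. Most circulating complement comes from the liver, but C1q is made mainly by macrophages and adipsin mainly by adipocytes, from which its name derives.

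The libraries held 52950913 (WT) and 53216727 (Ucp1-KO) counts. Ucp1 itself had 366473 counts in WT and 37853 in Ucp1-KO, which is 12.7% of the WT level after normalisation (95% counting interval 12.5% to 12.9%). Ucp1 transcripts were thus not absent from the Ucp1-KO library, and the source of the remaining counts was not tested. The transcripts of 4 Y-linked genes were at 0 in WT and summed to 5305 counts in Ucp1-KO. The X-linked Xist RNA had 32380 counts in WT and 16478 in Ucp1-KO. The male label thus does not match the transcripts of the WT library, which lacked Y-linked counts. Ucp1-KO held both Y-linked and Xist counts, and the sex of the pooled animals was not tested. The pools therefore also differed in sex-linked transcripts, which cannot be told apart from genotype. The 12 skeletal muscle markers made up 0.559% of the WT and 0.0643% of the Ucp1-KO counts, and mitochondrially encoded genes made up 22.4% and 36.7%.

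Complement transcripts in iBAT spanned a wide range of levels, and the alternative pathway genes Cfd and C3 dominated. Cfd supplied 59.3% of the counts of the 9 genes in WT (exact binomial interval 58.7% to 59.9%) and 42.4% in Ucp1-KO (41.6% to 43.2%). C3 supplied 33.2% in WT (32.6% to 33.8%) and 48.0% in Ucp1-KO (47.2% to 48.8%). By counts the order of these abundant genes was thus exchanged between the libraries, and each of the other 7 genes held between 0.357% and 2.096% of the counts. After division by transcript length the order was not exchanged. Cfd then held 86.1% and C3 8.79% in WT, and 76.0% and 15.7% in Ucp1-KO.

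**Figure D1:**
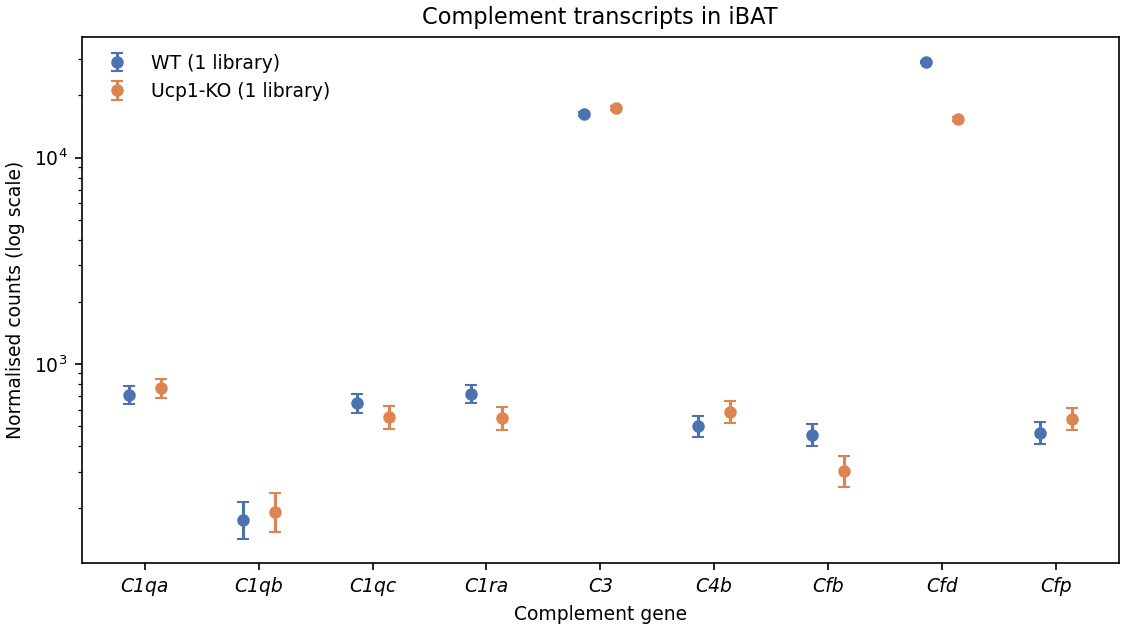
Normalised counts (log scale) of the 9 complement genes in the WT and the Ucp1-KO library, with 95% Poisson intervals for counting error as bars. Cfd stands at 29041 in WT and 15377 in Ucp1-KO, whereas C3 is at 16253 and 17413 and none of the other genes is above 760 in either library.

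**Figure D2:**
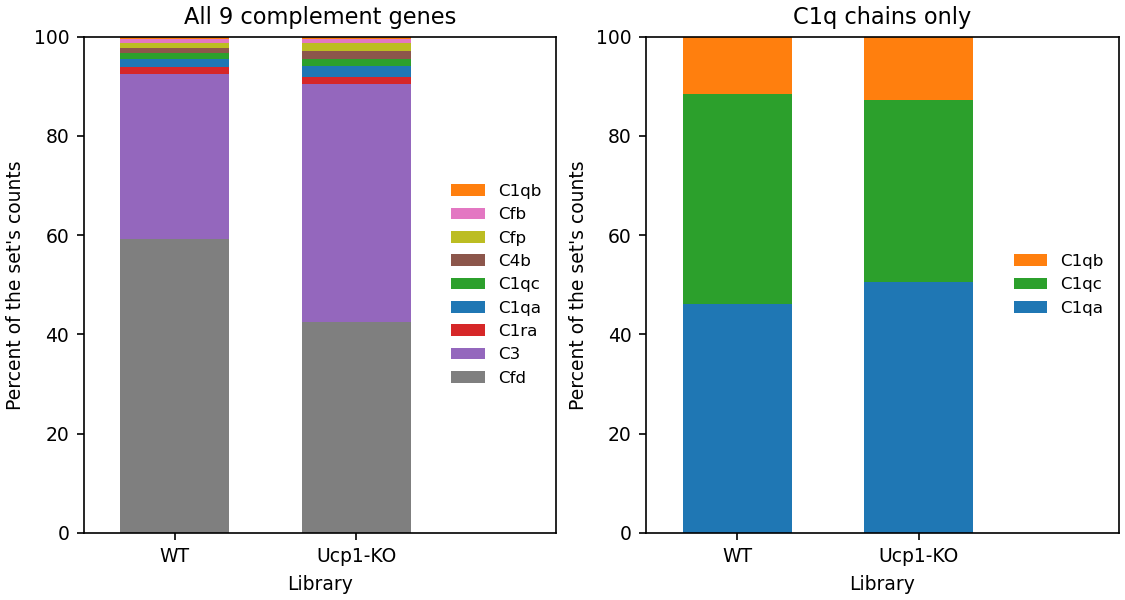
Percent of the summed counts of the 9 complement genes (left) and of the 3 C1q chains (right) that each gene supplied in the WT and the Ucp1-KO library, stacked to 100. Cfd takes the largest part in WT and C3 in Ucp1-KO, and C1qa and C1qc together make up most of C1q in both.

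Levels of different genes were compared as CPM per kb within a library, that is, counts scaled to the library total (CPM) and divided by the length of the canonical transcript in kb. In WT Cfd was at 647 CPM per kb, C3 at 66.0, C1qa at 13.6, C1qc at 7.31, Cfp at 5.90, C1ra at 5.05, Cfb at 2.84, C4b at 1.92 and C1qb at 1.45. Counting intervals of Cfp (5.20 to 6.67) and C1ra (4.57 to 5.57), of C1qc (6.57 to 8.11) and Cfp, and of C4b (1.70 to 2.16) and C1qb (1.17 to 1.77) overlapped. Such overlap does not show that neighbours were at the same level, and no interval was computed for the ratio between these genes. In Ucp1-KO Cfd was at 277 CPM per kb, C3 at 57.2, C1qa at 11.8, Cfp at 5.59, C1qc at 5.05, C1ra at 3.10, C4b at 1.82, Cfb at 1.53 and C1qb at 1.28. There Cfp (4.91 to 6.34) and C1qc (4.44 to 5.72) overlapped. So did Cfb (1.28 to 1.81) with C4b (1.61 to 2.05) and with C1qb (1.02 to 1.58), but C4b and C1qb did not.

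The genotypes were compared as the log2 ratio of Ucp1-KO over WT on counts scaled by median-of-ratios factors. A difference was read as beyond counting error where the 95% interval of the ratio excluded 0, and a 2-fold difference was the size rule. None of the 9 genes reached a 2-fold difference in either direction. Of the 15212 genes examined, those whose normalised counts averaged 10 or more, 7.42% were at least 2-fold higher in Ucp1-KO and 9.55% at least 2-fold lower. Beyond counting error, 1 of the 9 was higher (C3) and 3 were lower (C1ra, Cfb and Cfd), while 31.5% of all genes were higher and 30.5% lower by that rule. The median log2 ratio of the 9 was 0.10 (range -0.92 to 0.23), beside -0.0016 for all genes. Their summed counts gave -0.43 (-0.46 to -0.40), because Cfd and C3 carry the sum. With total counts as the scale, which moved the median of all genes by -0.31, 0 were higher and 5 lower beyond counting error, 1 of them (Cfd) by at least 2-fold. The corresponding split over all genes went from 4791 higher and 4641 lower to 2191 higher and 8213 lower.

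Of the 3 chains of C1q, the recognition molecule of the classical pathway, C1qa and C1qb did not differ beyond counting error, and the call for C1qc depended on the scaling. Their genes lie side by side on the minus strand of chromosome 4 of build GRCm39 in GENCODE release M39, C1qa at chr4:136623223-136626161, C1qc at chr4:136616466-136620376 and C1qb at chr4:136606009-136613511, with no other coding gene in between and a span of 20.2 kb. C1qa had 782 counts in WT and 685 in Ucp1-KO, or 705 and 760 after normalisation, and the log2 ratio was 0.11 (-0.10 to 0.32). C1qb had 194 and 172 counts, and the log2 ratio was 0.13 (-0.31 to 0.56). C1qc had 717 and 498 counts, and the log2 ratio was -0.23 (-0.47 to 0.01). It was lower beyond counting error, by a narrow margin, with TMM factors (-0.24) and with total counts that leave out mitochondrial genes (-0.24), and clearly with total counts (-0.53). C1qa and C1qb were thus nominally above and C1qc nominally below the WT level, and summed C1q counts had a log2 ratio of -0.02 (-0.17 to 0.13).

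The proportions of the chains do not depend on the scaling between libraries. C1qa made up 46.2% of C1q counts in WT (42.8% to 49.6%) and 50.6% in Ucp1-KO (46.7% to 54.4%), and C1qb 11.5% (9.39% to 13.8%) and 12.7% (10.3% to 15.4%). C1qc made up 42.4% in WT (38.99% to 45.8%) and 36.8% in Ucp1-KO (33.1% to 40.5%). The intervals overlapped for every chain, which does not show that the shares were alike. No interval was computed for the change in a share. C1qc amounted to 91.7 per 100 C1qa counts in WT (79.2 to 106) and to 72.7 in Ucp1-KO (61.5 to 85.8), a log2 change of -0.33.

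Promoter sequence from RefSeq (GRCm38.p6) was at hand for 6 of the 9 genes (C1qb, C1qc, C1ra, C3, Cfd and Cfp). The bases before the start site of C1qb and C1qc are shown as neighbours in 1 gene cluster, and those of C3 and Cfd as the abundant genes whose order by counts was exchanged. Only bases outside the annotated gene are printed, from the 250 bases before the RefSeq start, placed by an exact match to GRCm39 at chr4:136613512-136613761 (C1qb, minus strand), chr4:136620377-136620475 (C1qc, minus strand), chr17:57535156-57535386 (C3, minus strand) and chr10:79726437-79726667 (Cfd, plus strand). Capitals mark a match to GAGGAAGT, a motif of the myeloid factor PU.1, read on either strand.
C1qb: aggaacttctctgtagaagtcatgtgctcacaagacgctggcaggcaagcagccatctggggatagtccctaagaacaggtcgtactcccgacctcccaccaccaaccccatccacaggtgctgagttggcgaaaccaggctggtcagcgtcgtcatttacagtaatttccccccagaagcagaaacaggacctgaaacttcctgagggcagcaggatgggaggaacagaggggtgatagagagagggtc
C1qc: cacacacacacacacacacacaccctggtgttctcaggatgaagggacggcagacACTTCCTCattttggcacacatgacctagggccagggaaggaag
C3: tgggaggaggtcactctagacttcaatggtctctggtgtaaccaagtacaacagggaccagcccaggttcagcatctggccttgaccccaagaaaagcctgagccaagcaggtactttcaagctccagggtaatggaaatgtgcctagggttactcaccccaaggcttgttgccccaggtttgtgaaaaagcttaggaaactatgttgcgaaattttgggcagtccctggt
Cfd: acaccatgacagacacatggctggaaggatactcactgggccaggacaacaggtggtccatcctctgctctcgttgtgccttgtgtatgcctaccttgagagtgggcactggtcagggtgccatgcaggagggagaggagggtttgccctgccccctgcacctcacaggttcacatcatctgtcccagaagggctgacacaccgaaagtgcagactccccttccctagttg

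Over the full 250 bases, the PU.1 letters occurred in C1qc alone among the 6 promoters, 188 to 195 bases before its start, and in 2.44% of 32851 mouse promoters of that length. The letters TTGCNNNAA, GGGNNTTCC, GAAANNGAA (interferon-stimulated response element) and TTCNNNGAA (STAT), each searched on both strands, were in none of the 6 windows. They occurred in 8.29%, 4.98%, 7.13% and 7.02% of all promoters. TTGCNNNAA and GGGNNTTCC do not spell the usual sites of C/EBP and NF-κB, so they say nothing about sites of these factors. For the other letters too, only the exact pattern was searched.

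Downstream of C1q, the protease gene C1ra was lower and C4b was not separated from WT. C1ra (chr6:124489364-124500402, plus strand), which encodes the protease C1r, had 797 counts in WT and 492 in Ucp1-KO, or 718 and 546 normalised counts. Its log2 ratio was -0.40 (-0.63 to -0.16), or 76.0% of WT. C4b (chr17:34947354-34962912, minus strand), whose product is cleaved by C1s and covalently tags surfaces, had 553 and 526 counts, and the log2 ratio was 0.23 (-0.02 to 0.48). The partner protease gene C1s1 was lower by a similar amount, from 3704 to 2461 counts, and the log2 ratio was -0.29 (-0.40 to -0.19). The ratio of C1ra to C1s1 inside a library was 21.5 per 100 in WT (19.3 to 24.0) and 20.0 in Ucp1-KO (17.4 to 22.9), which overlap.

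Part of these sequences recurs in paralogs, and exons of C1qb, C1qc, C3, C4b, Cfb and Cfp overlap annotated exons on the opposite strand. How reads that match several genes were counted, and with which strand setting, is not given in the sources used here. Of all 100-base windows of the C1ra transcript 35.9% also occur in transcripts of another gene, mostly C1rb, and of the C4b transcript 16.3%, all in C4a. C1rb had 4 and 3 counts. C4a had 56 and 39, and the log2 ratio was -0.22 (-1.14 to 0.66). Summing the paralogs gave -0.39 for C1ra with C1rb and 0.19 for C4b with C4a, sums chosen after the values were seen.

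In the alternative pathway Cfd was lower, Cfb was lower, and C3 and Cfp were close to the WT level. Cfd (chr10:79726668-79728496, plus strand), the gene of adipsin, fell from 32219 counts in WT (31723 to 32720) to 13860 in Ucp1-KO (13536 to 14190). The Ucp1-KO library held 52.9% of the WT level (51.5% to 54.5%), and the log2 ratio was -0.92 (-0.96 to -0.88), and 10.8% of all genes had a lower ratio. Cfd was the gene at rank 161 by counts in WT and at rank 369 in Ucp1-KO.

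C3 (chr17:57510964-57535155, minus strand), the central component, had 18032 counts in WT and 15695 in Ucp1-KO, or 16253 and 17413 after normalisation. Its log2 ratio was 0.10 (0.06 to 0.14), which is 107% of WT, but the sign depended on the scaling and total counts gave -0.21. By contrast Cfd was lower with each scaling tried, between -0.92 and -1.22. Cfd counts amounted to 179 per 100 C3 counts in WT (174 to 183) and to 88.3 in Ucp1-KO (85.5 to 91.2), a quantity that is free of scaling.

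Cfb (chr17:35074852-35081559, minus strand), which encodes the factor B that adipsin cleaves, had 503 counts in WT and 272 in Ucp1-KO, or 453 and 302 normalised counts. Its log2 ratio was -0.59 (-0.90 to -0.28), or 66.6% of WT. Cfb lies 18 bases from C2 on chromosome 17, and C2, its classical pathway counterpart, was lower as well, from 223 to 128 counts with a log2 ratio of -0.50 (-0.97 to -0.05). An annotated read-through gene, Gm20547, overlaps exons of both Cfb and C2 on the same strand. It shares 63.2% of the 100-base windows of Cfb and was not analysed here, and the windows of C2 were not compared. Cfp (chrX:20791688-20797794, minus strand), the gene of properdin, had 513 and 488 counts, and the log2 ratio was 0.23 (-0.03 to 0.49). Cfp is X-linked, and the X-linked Xist RNA had 32380 counts in WT and 16478 in Ucp1-KO.

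The wider complement system was described from a list of 52 genes in 9 roles, of which 37 were examined. By the 2-fold rule 4 of these were higher and 2 lower, beside 7.42% and 9.55% of all genes. Beyond counting error 8 were higher and 10 lower, beside 31.5% and 30.5% of all genes. Their median log2 ratio was -0.0083, beside -0.0016 for all genes. With total counts the split beyond counting error was 5 higher and 14 lower.

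**Figure D3:**
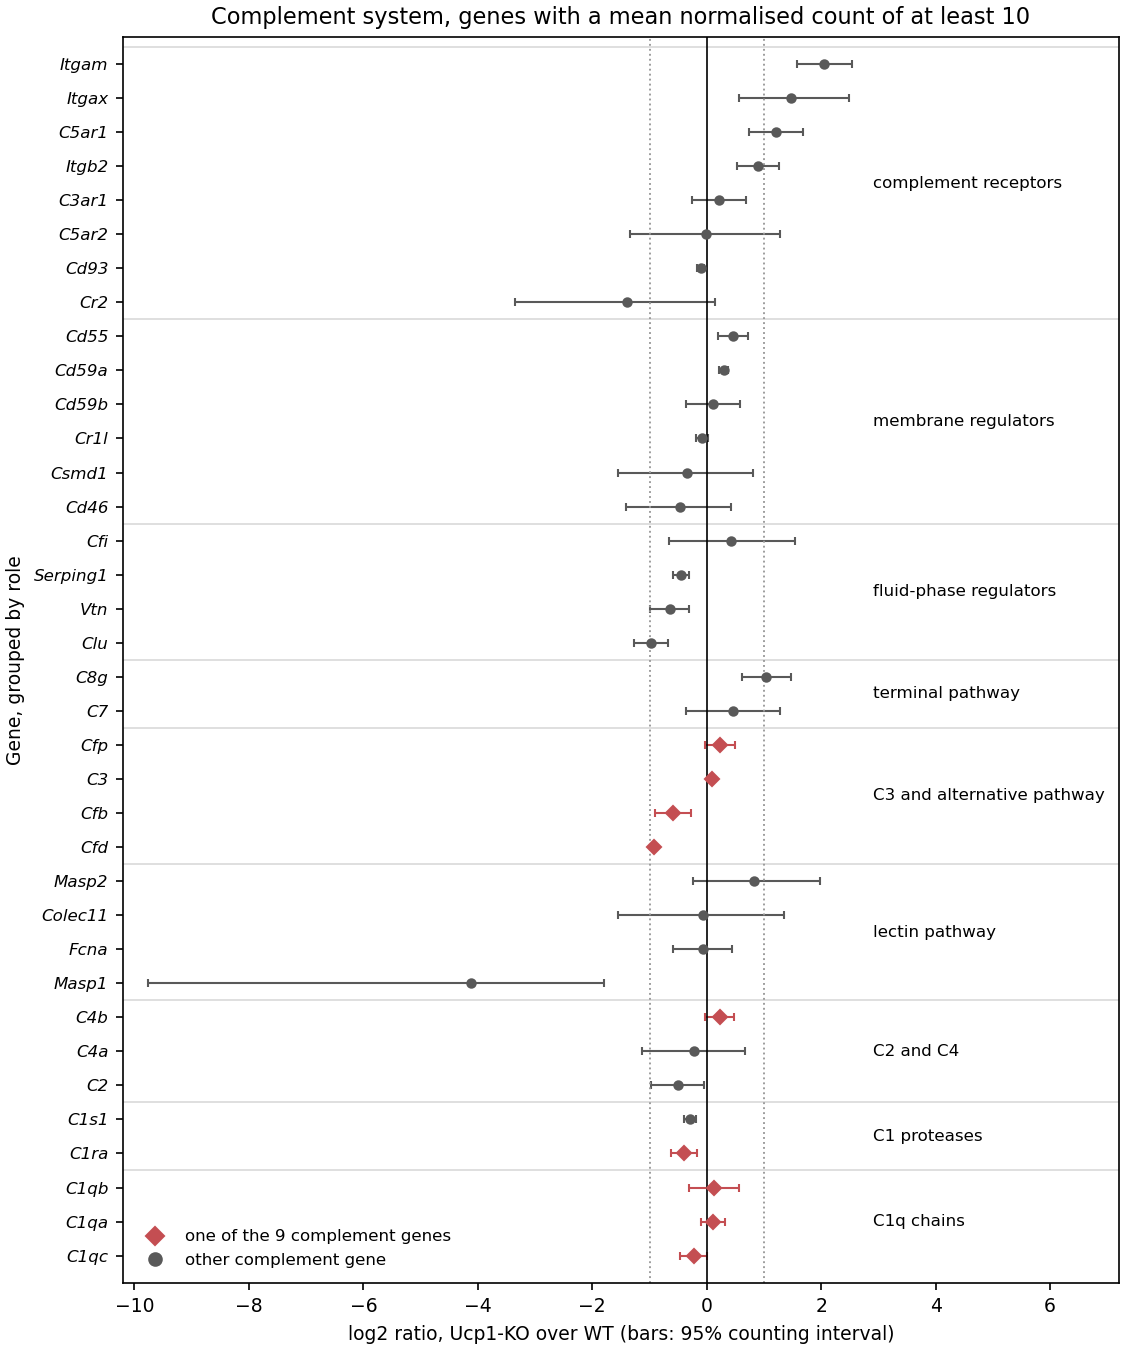
Log2 ratio of Ucp1-KO over WT for the complement genes examined that are reported here, grouped by role, with 95% counting intervals as bars and dotted lines at a 2-fold difference. The 9 genes of interest (diamonds) lie between -0.92 and 0.23, inside the dotted lines, whereas Itgam, Itgax, C5ar1 and C8g lie above them and Masp1 and Cr2 below.

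Complement receptors had a median log2 ratio of 0.55 over 8 genes (0.25 with total counts and 0.89 with a minimum mean of 50), with 4 higher and 1 lower beyond counting error. Itgam, the alpha chain of complement receptor 3, had 96 counts in WT and 323 in Ucp1-KO, and the log2 ratio was 2.04 (1.58 to 2.55). Itgax, the alpha chain of complement receptor 4, had 29 and 66 counts (1.47, 0.56 to 2.49), and their shared beta chain Itgb2 had 215 and 324 (0.89, 0.53 to 1.26). The anaphylatoxin receptor gene C5ar1 had 120 and 225 counts, and the log2 ratio was 1.20 (0.74 to 1.68). The receptor gene C3ar1 had 157 and 148 counts, and the log2 ratio was 0.21 (-0.26 to 0.69), and C5ar2 had 26 and 21. Cd93, which is abundant in endothelium, had 12687 and 9566 counts and a log2 ratio of -0.11 (-0.16 to -0.05). Cr2, a receptor of B cells, had 30 and 9 counts and an interval (-3.36 to 0.15) that included 0.

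Soluble regulators were lower or not separated, with a median log2 ratio of -0.44 over 5 genes (-0.75 with total counts), 3 of them lower beyond counting error. Clu, encoding clusterin, had 663 counts in WT and 274 in Ucp1-KO, and the log2 ratio was -0.97 (-1.27 to -0.68). Vtn, encoding vitronectin, had 430 and 224 counts, and the log2 ratio was -0.64 (-0.98 to -0.31). Serping1, the inhibitor of the C1 proteases, had 2277 and 1359 counts, and the log2 ratio was -0.44 (-0.58 to -0.31). Cfi, a protease that inactivates C3 and C4 fragments, had 30 and 33 counts and was within counting error.

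Membrane regulators, which shield host cells, had a median log2 ratio of 0.02 over 6 genes (-0.29 with total counts), 2 higher and 0 lower beyond counting error. Cd55 had 461 counts in WT and 516 in Ucp1-KO, and the log2 ratio was 0.46 (0.20 to 0.72), which total counts moved to 0.16, within counting error. Cd59a had 5347 and 5331 counts, and the log2 ratio was 0.30 (0.22 to 0.37) that total counts moved to -0.01, also within counting error. The rodent regulator Cr1l had 3268 and 2508 counts, and the log2 ratio was -0.08 (-0.19 to 0.02), and Cd46, Cd59b and Csmd1 were within counting error too.

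Transcripts of the lectin and terminal pathways were few. Of 8 lectin pathway genes 4 passed the minimum, and Mbl1, Mbl2 and Colec10 were at 0 in both libraries, a count that allows up to 0.113 CPM. Masp1 had 52 counts in WT and 2 in Ucp1-KO, and the log2 ratio was -4.12 with a wide interval of -9.76 to -1.80. Masp2 (26 and 38 counts), Fcna (150 and 116) and Colec11 (22 and 17) were within counting error. Of 7 terminal pathway genes only C7 and C8g passed. C7 had 52 and 58 counts, and C8g had 152 and 254, and the log2 ratio was 1.04 (0.62 to 1.47). Exons of C8g overlap those of Fbxw5 on the opposite strand, which had 2965 and 1928 counts.

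Markers of the cells that make these proteins were set beside the complement genes. In bulk tissue, fewer cells of a type and less RNA per cell cannot be told apart. The 20 macrophage markers had a median log2 ratio of 0.04, with 8 higher and 3 lower beyond counting error and a summed log2 ratio of 0.04 (-0.01 to 0.09), from 250 and 208 CPM. Total counts moved that median to -0.27, as they did the median of the C1q chains to -0.20. C1q counts amounted to 12.8 per 100 summed macrophage marker counts in WT (11.9 to 13.7) and 12.3 in Ucp1-KO (11.3 to 13.3), which overlap. For Cfp the values were 3.88 (3.41 to 4.39) and 4.41 (3.87 to 5.02), which overlap as well. Over the 9 monocyte and neutrophil markers examined of 12 the median was 0.92, with 4 higher and 1 lower beyond counting error, and Ly6g and Retnlg were at 0 in both libraries. Their summed level was 8.54 CPM in WT and 11.9 in Ucp1-KO, and its part in the receptor values was not tested.

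Cfd was lower in Ucp1-KO, whereas the sum of the adipocyte markers was not. The 13 adipocyte markers had a median log2 ratio of 0.25, which total counts moved to -0.06, with 8 higher and 5 lower beyond counting error and sums of 17174 and 17479 CPM. Cfd amounted to 3.54 per 100 summed adipocyte marker counts in WT (3.49 to 3.60) and to 1.49 in Ucp1-KO (1.45 to 1.53), a log2 change of -1.25. The most abundant markers carry most of that sum. C3 per adipocyte marker counts went from 1.98 (1.94 to 2.02) to 1.69 (1.65 to 1.73). Within the list, the adipokine genes moved apart. Retn (resistin) had 3418 and 746 counts (log2 ratio -1.90) and Lep (leptin) 821 and 279 (-1.26), both lower like Cfd, whereas Adipoq (adiponectin) had 29355 and 42763 (0.84).

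**Figure D4:**
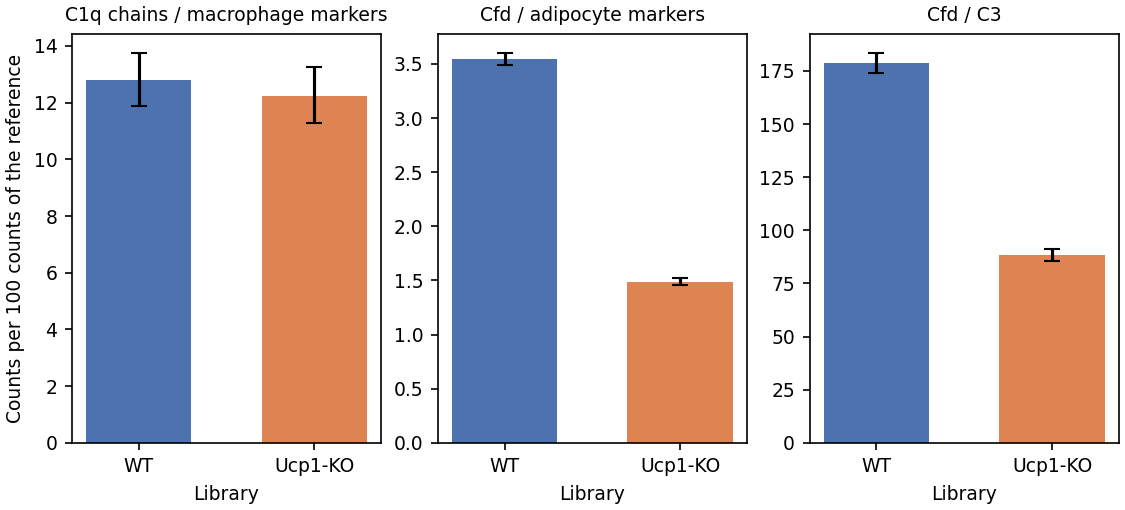
Counts of the C1q chains per 100 counts of summed macrophage markers, of Cfd per 100 counts of summed adipocyte markers and of Cfd per 100 counts of C3 in each library, with exact binomial counting intervals as error bars. The bars for C1q have overlapping intervals (12.8 and 12.3), whereas those for Cfd are lower in Ucp1-KO against adipocyte markers (3.54 and 1.49) and against C3 (179 and 88.3).

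The 12 preadipocyte and fibroblast markers had a median log2 ratio of -0.24 (-0.54 with total counts), and 11 of them were lower beyond counting error, with sums of 2588 CPM in WT and 1700 in Ucp1-KO. C1ra per 100 of these marker counts was 0.582 (0.526 to 0.642) in WT and 0.544 (0.478 to 0.617) in Ucp1-KO, which overlap, and Cfb was 0.367 (0.323 to 0.415) and 0.301 (0.252 to 0.356). On the same base C4b went from 0.404 (0.357 to 0.454) to 0.582 (0.513 to 0.656) and C3 from 13.2 (12.9 to 13.5) to 17.4 (16.9 to 17.8). A few abundant markers carry most of this base, among them Gsn with 35504 and 16789 counts (log2 ratio -0.78), so these ratios depend on such genes. The part of the preadipocyte and fibroblast markers in the values of C1ra and Cfb was not tested. Of 10 endothelial markers 9 were lower and 1 higher beyond counting error (median -0.87, sums of 2346 and 1161 CPM). All 12 skeletal muscle markers were lower (median -2.78, sums of 5587 and 643 CPM). The part of either list in the complement values was not tested.

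**Figure D5:**
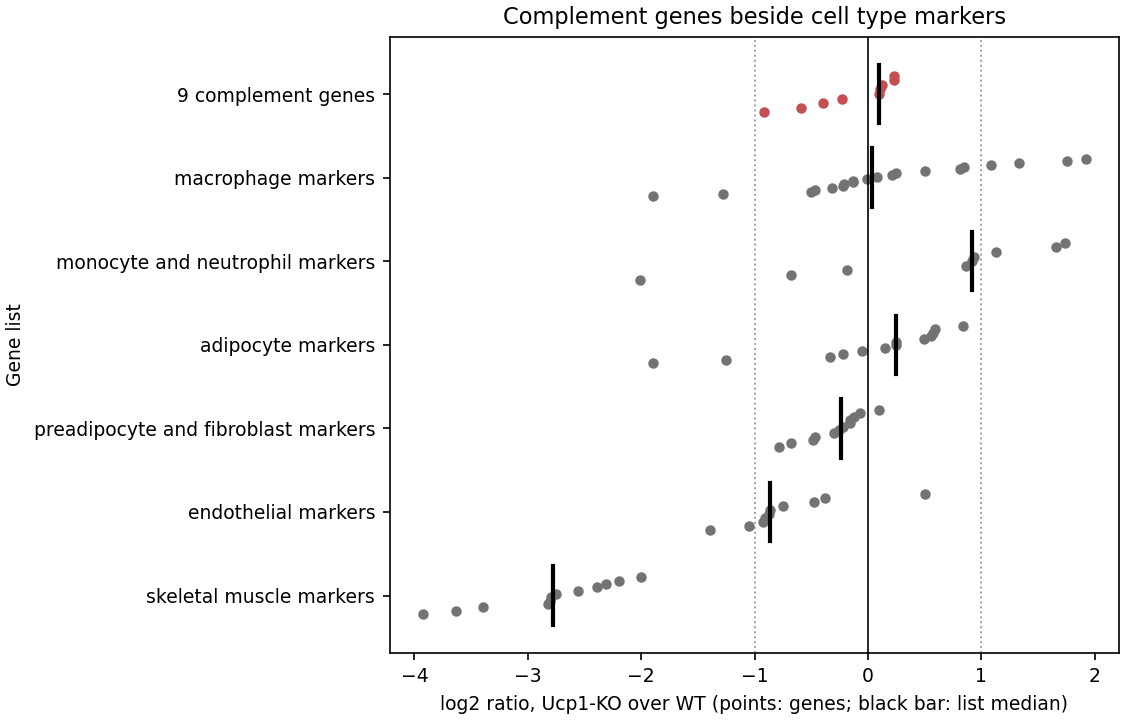
Log2 ratio of Ucp1-KO over WT for each of the 9 complement genes and for the examined genes of 6 cell marker lists, with the list median as a black bar and dotted lines at a 2-fold difference. The complement genes have a median of 0.10. The medians are 0.04 for macrophage, 0.25 for adipocyte and 0.92 for monocyte and neutrophil markers. Those of fibroblast (-0.24), endothelial (-0.87) and skeletal muscle markers (-2.78) lie below 0.

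Hepatocyte transcripts, which would mark the organ that supplies plasma complement, were near 0: Alb had 2 counts in each library, and Ahsg, Fgb and Fga were at 0 in both. Of the 8 markers only Apoc3 passed the minimum, with 245 and 32 counts. The summed level of the list was 5.02 CPM in WT and 0.639 in Ucp1-KO, against 1026 and 614 CPM for the 9 complement genes. Acute-phase and inflammatory genes had a median log2 ratio of 0.25 over 13 genes examined of 16, with 6 higher and 3 lower beyond counting error. With total counts that median was -0.17. The heme-binding protein gene Hpx had 49 and 618 counts (3.94, 3.36 to 4.61), and Il1rn, the interleukin 1 receptor antagonist, 30 and 353 (3.83, 3.10 to 4.72). The transcription factor gene Cebpd was lower, with 393 and 236 counts (-0.44, -0.78 to -0.10). The 6 mast cell markers (5 examined, median 0.23, or -0.07 with total counts, 1 higher and 0 lower beyond counting error) and the 8 B and T cell markers (7 examined, median 0.29, or -0.0071 with total counts, 0 higher and 1 lower) were lowly expressed, with sums of at most 26.6 and 4.89 CPM.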

How the data were processed

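The deposited tables hold whole-number counts of reads per gene by Entrez identifier, not normalised, which the authors made with featureCounts. Per the labels, libraries were strand-specific and poly-A enriched, and the submitters' processing notes name Trim Galore, HISAT2 and build mm39. Annotation, strand and multi-mapping settings are not given in the sources used here. Genes without a symbol (1319, with 0.156% of WT and 0.121% of Ucp1-KO counts) were kept.

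Libraries were scaled by median-of-ratios factors (1.11 for WT, 0.901 for Ucp1-KO) from DESeq2 1.42.0 under R 4.3.3. Log2 ratios used a pseudocount of 0.5. Among genes with 1 to 10 counts 70.7% (WT) and 73.4% (Ucp1-KO) were even, as when both mates of a pair are counted, so intervals were computed on read pairs (counts divided by 2), which widens them. Ratios have exact conditional binomial (Clopper-Pearson) intervals, counts exact Poisson ones and shares exact binomial ones, all at 95% and for counting error only. Where the intervals of separate values overlap, this does not show that the values are alike. A count of 0 allows up to 3 read pairs. The calculation was tested on simulated counts. With 1 library per genotype no significance test was made.

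Members and gene lists were chosen with earlier results of these data known. The genes that could be named were Ucp1, the 9 genes, examined genes of the 9 role lists and up to 3 genes of each of 10 context lists with the greatest log2 ratio in size where the mean normalised count reached 100. Genes named outside that rule (C1rb, Gm20547, Fbxw5, Xist, Alb and genes listed at 0) were chosen after their values were seen. Some genes of these lists are counted with their list but not reported here by name. Positions and transcript lengths are those of GENCODE M39 on GRCm39, joined by symbol. Promoters are those of RefSeq. Alternatives were TMM factors (edgeR 4.0.16), total counts with and without mitochondrial genes, other filters, a pseudocount of 5, intervals on counts as deposited and a 1.5-fold rule.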

Additional observations from a re-analysis of the deposited data

How the results depend on the processing

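No paired analysis was possible because only 1 library stands for either genotype, and for that reason no library could be left out. TMM factors and total counts without mitochondrial genes left every log2 ratio of the 9 genes inside its counting interval, and under both 4 instead of 3 were lower beyond counting error, C1qc being the gene added. Total counts, which lower all genes by 0.31, changed the sign of C1qa (-0.20), C1qb (-0.18), C3 (-0.21), C4b (-0.079), Cfp (-0.079), Cd59a (-0.012), Cd59b (-0.19), C3ar1 (-0.092) and the median of the 9 genes (-0.21), and put C1qc at -0.53, C1ra at -0.70 and Cfd at -1.22. They also turned the medians of the C1q chains (-0.20), membrane regulators (-0.29) and acute-phase genes (-0.17) and of adipocyte (-0.056), macrophage (-0.27), mast cell (-0.074) and B and T cell markers (-0.0071). Of the 9 genes 1 was then at least 2-fold lower, 0 were higher and 5 lower beyond counting error, and in the wider system 2 were 2-fold higher, 4 were 2-fold lower and 5 were higher beyond counting error. A 1.5-fold rule made 2 of the 9 lower (Cfd and Cfb). Intervals on counts as deposited made 3 of the 9 higher beyond counting error, by construction of narrower intervals. Without a filter 8 genes of the wider system were 2-fold higher and 6 lower, and with a minimum mean of 50, which removes Masp1 and Cr2, 0 were lower. Over all genes, 1128 were 2-fold higher and 1453 lower, which became 732 and 2320 with total counts, 2187 and 2844 without a filter, 617 and 811 with a minimum of 50, and 2348 and 2728 at 1.5-fold. Summed counts gave -0.43 for the 9 genes, and the difference between list medians gave -1.17 for Cfd against adipocyte markers and 0.07 instead of -0.06 for C1q against macrophage markers, an alternative chosen after seeing the data. Depth limits C1qb, with under 200 counts, and genes such as Masp1 and Cr2 with fewer than 100.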
